A study of Mus musculus with 4 samples.

Results

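Zfp900 to Zfp999 are mouse genes for zinc finger proteins, most of them of the KRAB type. They were chosen by name alone, as protein-coding Ensembl genes whose symbol is Zfp followed by a number in that range. The files held 63 such genes among 43629 gene identifiers. A 64th gene of this name, Zfp939, is annotated as a pseudogene and was not counted among them. Their mRNA was measured by reverse-stranded poly(A) RNA sequencing in 4 libraries of mouse embryonic stem cells, all of 129/Ola background and grown in serum with LIF. Of the 2 knockout libraries, KO1 lacks the proline-rich region of Drosha and KO2 the region rich in arginine and serine, made by paired CRISPR/Cas9 cuts, so each knockout library represents its own allele. Both are at passage 7, and their titles carry the mark d5, which the labels do not explain. The wild-type libraries are E14, a standard embryonic stem cell line, at passage 33 (WT1) and passage 42 (WT2), and both are labelled as re-used. Genotype, passage and library origin therefore cannot be told apart. Nothing in the labels states whether the libraries are separate cultures, and the p-values cover only the spread among these 4 samples. Over genes with at least 50 counts in a pair, chi-square per degree of freedom was 2.26 between KO1 and KO2. Between WT1 and WT2 it was 167. The knockouts thus differed by little more than counting error, and whether they are independent samples was not tested.

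KRAB zinc finger proteins bind DNA through arrays of C2H2 fingers and recruit TRIM28 through the KRAB domain. TRIM28 in turn brings the histone methyltransferase SETDB1, and the complex silences retrotransposons in early embryos and embryonic stem cells. The genes arise by tandem duplication, sit in clusters and turn over quickly between species. DROSHA cuts primary microRNA transcripts in the nucleus. The comparison made here is between knockout and wild-type mRNA levels.

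All 56 Zfp900 to Zfp999 genes with enough counts to be tested had lower fitted levels in the knockouts, beside 50.8% of all genes. Of these, Zfp972 and Zfp993 had under 10 counts in KO1 and were tested through their wild-type level, so a low value was bound to follow. The other 54 had log2 fold changes from -2.08 to -0.24, with a median of -0.89 (-0.26 with the trends described below removed). Past the edgeR threshold (quasi-likelihood test, Benjamini-Hochberg adjusted p under 0.05 over all 17022 genes tested), 14 of the 56 fell and 0 rose. Over all genes tested, 1.94% were called lower and 3.51% higher. The median log2 fold change was -0.90 for these genes and -0.02 for all genes. The calls were marginal, with adjusted p between 0.0482 and 0.0499 for the 14. At an unadjusted p under 0.05, 43 of the 56 were lower, beside 17.7% of all genes. With no filter on low counts, 62 of the genes were fitted and 27 fell (3.99% of all genes). Among the 56 the count also moved with the setting: 15 with DESeq2-type size factors (2.29% of all genes), 16 with a replicate block (3.38%) and 35 with DESeq2 (11.1%). Without KO1 or without KO2 it was 0, as it was over all genes. It was 55 without WT1 (38.8% of all genes) and 50 without WT2 (34.6%). A large part of the difference moved with base composition, which is given next because it touches every value below.

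The transcripts of these genes are poor in G and C, with a median GC content of 38.7% against 50.3% over all tested genes. Low-GC genes in general were lower in the knockouts. The 476 tested protein-coding genes under 40% GC had a median log2 fold change of -0.71, and 12% of them were called lower. The 36 tested Zfp900 to Zfp999 genes under 40% GC had a median of -0.96, and 11 of them (30.6%) were called lower. With the trends of each library against GC content and exon length removed, the median of the 56 genes was -0.27 and that of all genes -0.03. Under 40% GC the medians were then -0.20 for the 36 genes and 0.036 for the 476. In that fit 46 of the 56 genes stayed below 0, beside 52.3% of all genes. It called none of them, and no gene at all. At an unadjusted p under 0.05, 12 of the 56 were lower and 0 higher in it, where 12.2% of all genes were lower. The 12 include Zfp972, which was tested through its wild-type level. Removing the GC trend alone gave a median of -0.23, and removing the length trend alone gave -1.08. What makes the libraries differ along GC content was not tested.

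**Figure D1:**
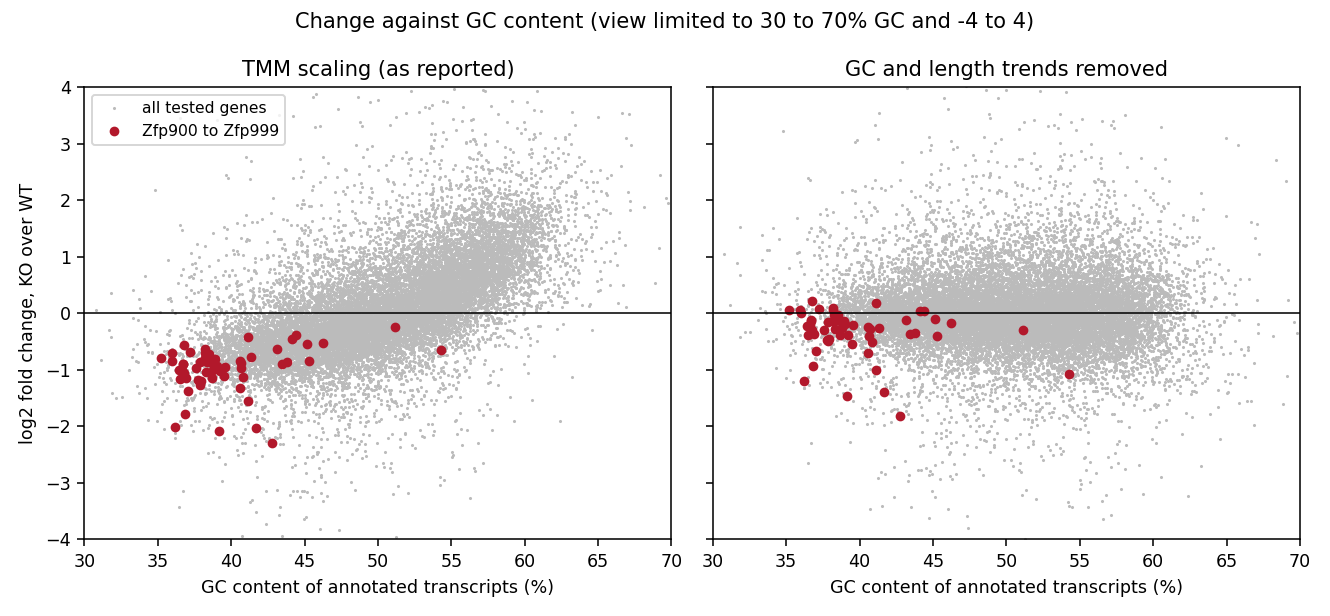
Log2 fold change of KO over WT (vertical axis) against the GC content of each gene's annotated transcripts in percent (horizontal axis), with TMM scaling on the left and with GC and length trends removed on the right. Grey points are all tested genes and red points the 56 tested Zfp900 to Zfp999 genes, which lie at the low-GC end and move from a median of -0.90 to one of -0.27.

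Promoter sequences show how closely some of these genes are related and which of them carry common elements, so 5 genes past the threshold are given here. RefSeq (GRCm38.p6) held promoter windows for 53 of the 63 genes, each spanning an annotated transcript start. Zfp970 (chr2:177464492-177464791, plus strand) and Zfp971 (chr2:178023034-178023333, plus strand) come from the same cluster. Zfp958 (chr8:4612920-4613219, plus strand, the first of 3 windows) lies on another chromosome. Zfp980 (chr4:145670447-145670746, plus strand) and Zfp987 (chr4:146097062-146097361, plus strand) come from the chromosome 4 cluster. All are written 5′ to 3′ along the gene's strand, and capitals mark the CCAAT box or any of 3 words of 12 bases described below, on either strand.
Zfp970: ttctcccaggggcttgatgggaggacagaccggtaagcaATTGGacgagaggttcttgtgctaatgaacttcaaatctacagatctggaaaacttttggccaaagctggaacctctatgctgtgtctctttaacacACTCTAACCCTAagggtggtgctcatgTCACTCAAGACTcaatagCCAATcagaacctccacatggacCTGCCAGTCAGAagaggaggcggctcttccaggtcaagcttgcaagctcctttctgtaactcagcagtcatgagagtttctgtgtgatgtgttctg
Zfp971: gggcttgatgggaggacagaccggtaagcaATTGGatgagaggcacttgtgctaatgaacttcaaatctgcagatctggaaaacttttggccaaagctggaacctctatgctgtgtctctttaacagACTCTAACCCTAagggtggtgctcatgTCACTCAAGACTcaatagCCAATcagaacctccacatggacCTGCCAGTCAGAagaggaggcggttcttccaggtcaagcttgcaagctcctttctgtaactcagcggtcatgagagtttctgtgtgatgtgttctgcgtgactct
Zfp958: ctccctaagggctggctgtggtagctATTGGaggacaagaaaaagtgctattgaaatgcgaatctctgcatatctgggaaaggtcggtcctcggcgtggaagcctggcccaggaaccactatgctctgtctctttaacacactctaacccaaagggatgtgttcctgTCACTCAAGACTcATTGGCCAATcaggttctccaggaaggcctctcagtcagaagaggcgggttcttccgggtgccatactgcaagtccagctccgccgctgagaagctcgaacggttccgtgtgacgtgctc
Zfp980: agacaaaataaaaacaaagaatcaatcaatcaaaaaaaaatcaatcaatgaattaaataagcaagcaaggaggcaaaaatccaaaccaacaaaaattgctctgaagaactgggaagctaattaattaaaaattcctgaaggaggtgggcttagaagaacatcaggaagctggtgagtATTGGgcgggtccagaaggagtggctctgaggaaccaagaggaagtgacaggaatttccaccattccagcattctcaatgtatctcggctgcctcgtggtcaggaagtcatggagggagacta
Zfp987: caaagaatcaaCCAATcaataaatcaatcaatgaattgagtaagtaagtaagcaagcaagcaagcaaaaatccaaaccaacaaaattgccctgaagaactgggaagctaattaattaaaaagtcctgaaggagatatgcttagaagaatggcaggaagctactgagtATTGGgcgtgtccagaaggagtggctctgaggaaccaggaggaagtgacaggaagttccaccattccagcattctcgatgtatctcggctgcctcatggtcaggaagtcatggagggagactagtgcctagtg

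The Zfp970 and Zfp971 windows were identical at 284 of 291 aligned bases (97.6%), and the Zfp980 and Zfp987 windows at 262 of 282 (92.9%). Zfp958 matched Zfp970 at 217 of 277 aligned bases (78.3%) although it lies on chromosome 8. Pairs of Zfp970, Zfp971 or Zfp958 with Zfp980 or Zfp987 aligned over fewer bases, 24 to 202. There the percentages ran from 68.8% to 86.0% (Zfp971 with Zfp987, 37 of 43 bases), so the percentage alone does not set related windows apart. CCAAT (or ATTGG), the box bound by NF-Y, was in the windows of 40 of the 53 genes (75.5%), of 48.0% of 252 other Zfp genes and of 41.1% of all 27025 genes with a window. The 12-base word held by the most of the 53 genes was CTGCCAGTCAGA (reverse TCTGACTGGCAG), in 16 genes (30.2%) against 0.207% of all genes. The most frequent words sharing no 6-base run with it, or with each other, were AGTCTTGAGTGA (reverse TCACTCAAGACT) in 11 genes (20.8%, and 0.174% of all) and ACTCTAACCCTA (reverse TAGGGTTAGAGT) in 10 (18.9%, and 0.155% of all). None of these words contains CCAAT or ATTGG, and genes copied from each other share letters whether or not a factor binds them.

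The 18 genes with any of the 3 words included 13 tested ones, on 5 chromosomes, of which 4 fell, with a median log2 fold change of -1.15. Every chromosome 2 gene with a window held a word, and no gene of chromosome 4 or 17 did. The 35 genes with a window and none of the words included 34 tested ones, of which 6 fell, with a median of -0.86. With GC and length trends removed the medians were -0.47 and -0.20. The 13 include Zfp972, which was tested through its wild-type level, so its low value was bound to follow. The difference between these groups was not tested, and the words cannot be told apart from the genomic clusters that hold them.

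Of the 63 genes, 43 lay in 5 genomic groups, formed by joining neighbours that start within 1 Mb of each other and keeping groups with at least 3 tested genes. They are on chromosomes 2, 4, 7, 8 and 17, and the other 20 genes are spread over the genome. A KRAB-like stretch was found in the longest coding sequence of 58 of the 63 genes and at least 1 C2H2 finger motif in all but 3 (Zfp935, Zfp957 and Zfp972). The median was 11 finger motifs per protein, with a maximum of 21 in Zfp974.

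Related genes share sequence, so a short read can match several of them. The share of a gene's 50-base transcript stretches that also occur in other annotated genes ran from 0% (Zfp949) to 100% (Zfp935, Zfp967 and Zfp969), with a median of 20.0%. Values of the 19 genes at 50% or more are uncertain, since the treatment of reads with several matches is not given in the sources used here. Among the 22 tested genes under 10%, 3 fell (Zfp930, Zfp933 and Zfp958), with a median log2 fold change of -0.87. Among the 13 tested genes at 50% or more, 7 fell, with a median of -1.0. The 13 include Zfp972 and Zfp993, which were tested through their wild-type level, so their low values were bound to follow and lower this median. With GC and length trends removed the medians were -0.27 in both sets of genes.

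The genes differed widely in level. Mean levels over the 4 libraries exceeded 100 CPM (counts scaled by library size and TMM factor) in 5 genes and stayed under 10 CPM in 29. Per kilobase of annotated exon, Zfp990 had the highest mean level at 88.5 CPM per kb. Zfp979 (55.6), Zfp978 (49.4), Zfp988 (44.9) and Zfp985 (42.7 CPM per kb) followed, all of the chromosome 4 group. The order of these 4 differed between libraries, with Zfp978 above Zfp979 in WT1 (71.9 against 66.7 CPM per kb) and below Zfp988 in WT2 (52.5 against 66.5 CPM per kb). The 63 genes made up 0.137% (KO1), 0.142% (KO2), 0.230% (WT1) and 0.243% (WT2) of all counts. Fewer transcripts per cell and fewer cells expressing a gene cannot be told apart in such bulk samples.

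In 55 of the 56 tested genes both knockout libraries lay below both wild-type libraries, and in 0 both lay above. Over all tested genes, 34.8% had both knockouts below and 36.5% had both above. The exception was Zfp983, where the groups overlapped (KO1 0.778, KO2 1.10, WT1 0.902 and WT2 2.75 CPM). Zfp957, Zfp965, Zfp967, Zfp968 and Zfp969 had at most 4 counts in any library, which gives no order. Fitted log2 fold changes were under -1 in 22 of the 56 tested genes, beside 7.45% of all genes tested, between -1 and -0.5 in 30, and above -0.5 in 4. The 55 and the 22 both include Zfp972 and Zfp993, which were tested through their wild-type level, so their low knockout values were bound to follow. 

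**Figure D2:**
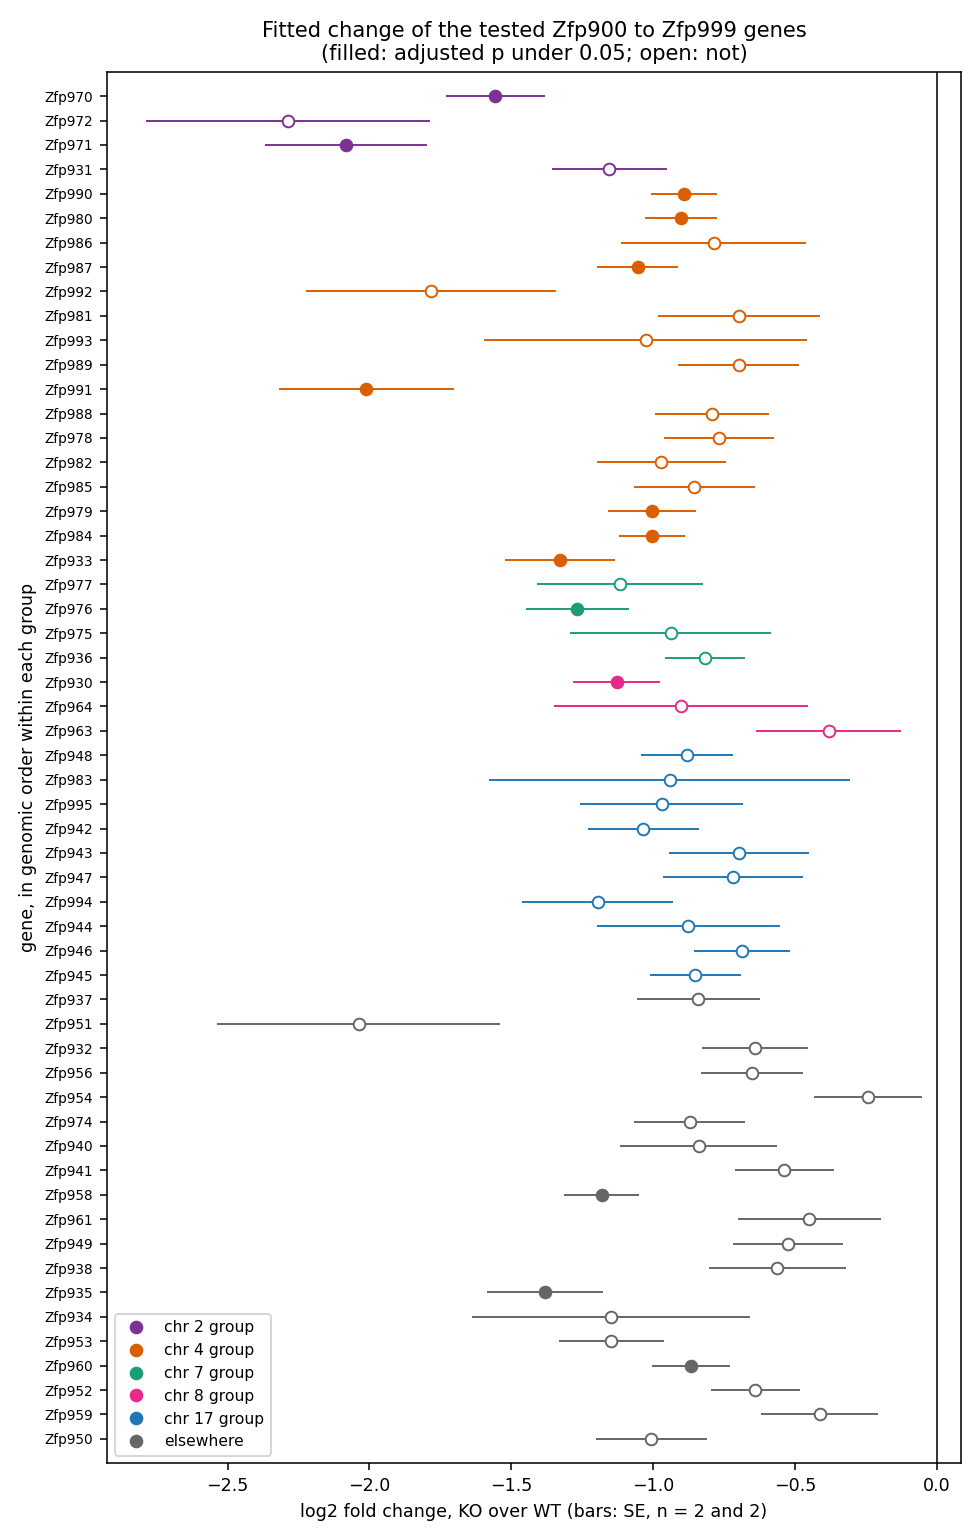
Fitted log2 fold change of KO over WT (horizontal axis, bars are SE, n = 2 and 2) for each of the 56 tested genes (vertical axis), in genomic order and coloured by genomic group. Filled points passed the edgeR threshold and open points did not; every point lies below 0 with TMM scaling, the smallest difference being -0.24 for Zfp954.

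The 16 genes of the chromosome 4 group (145510759 to 147848366, build mm10) lie among relatives such as Rex2 and Zfp600. Deleting KRAB zinc finger clusters of chromosomes 2 and 4 is known to raise retrotransposon transcription in mouse cells. All 16 were tested, 7 fell and 0 rose, and their median log2 fold change was -0.94 (-0.21 with GC and length trends removed). The highest member, Zfp990 (ENSMUSG00000078503, 145510759 to 145539188, 13 finger motifs), had 211 (KO1), 223 (KO2), 404 (WT1) and 400 CPM (WT2). The means were 217 ± 8.49 CPM (knockout) and 402 ± 2.73 CPM (wild type; SD, n = 2 each), and the groups did not overlap. The log2 fold change was -0.89 ± 0.11 (SE; edgeR adjusted p = 0.0482) and -0.12 ± 0.14 with the trends removed.

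Zfp991 (ENSMUSG00000067916, 147132038 to 147180579, 11 finger motifs) showed the largest difference of the group. Its levels were 9.56 (KO1), 12.1 (KO2), 33.5 (WT1) and 54.2 CPM (WT2). Both knockouts were below both wild types, which themselves stood apart. The log2 fold change of -2.01 ± 0.31 (edgeR adjusted p = 0.0487) was -1.19 ± 0.19 with trends removed, and 82.2% of its stretches occur in other genes. Zfp933 (ENSMUSG00000059423, 147822986 to 147848366), at the end of the group, shares only 1.05% of its stretches. It had 3.95 and 4.21 CPM in knockouts against 9.82 and 10.7 CPM in wild types, a fitted difference of -1.33 ± 0.19 log2 units (edgeR adjusted p = 0.0482) and -0.69 ± 0.18 with trends removed.

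Other genes of this group past the threshold were less distant from wild type than Zfp991 and Zfp933. Zfp979 had 147 and 158 CPM in knockouts against 274 and 336 CPM in wild types. Zfp984 had 55.6 and 58.2 against 111 and 117 CPM. Zfp980 had 58.4 and 59.6 against 116 and 104 CPM, and shares 58.6% of its stretches with Rex2. Zfp987 had 20.7 and 22.3 against 46.9 and 42.5 CPM. In these 4 genes the groups did not overlap. Their log2 fold changes ran from -1.05 (Zfp987) to -0.90 (Zfp980), and from -0.30 to -0.13 with trends removed.

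The wild types disagreed on several genes of the group that did not pass. Zfp992 stood at 55.3 (WT1) and 128 CPM (WT2), against 26.4 and 26.9 CPM in the knockouts (log2 fold change -1.78 ± 0.44, edgeR adjusted p = 0.0733). Zfp981 had the smallest difference and went the other way between the wild types, at 128 (WT1) and 75.4 CPM (WT2), against 62.7 and 62.8 CPM. Its log2 fold change of -0.70 ± 0.28 (edgeR adjusted p = 0.160) was 0.06 ± 0.39 with trends removed. Zfp988 (90.4 and 93.5 against 133 and 186 CPM), Zfp985 (86.8 and 88.0 against 129 and 187 CPM) and Zfp978 (47.6 and 46.6 against 92.5 and 67.6 CPM) did not pass either.

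**Figure D3:**
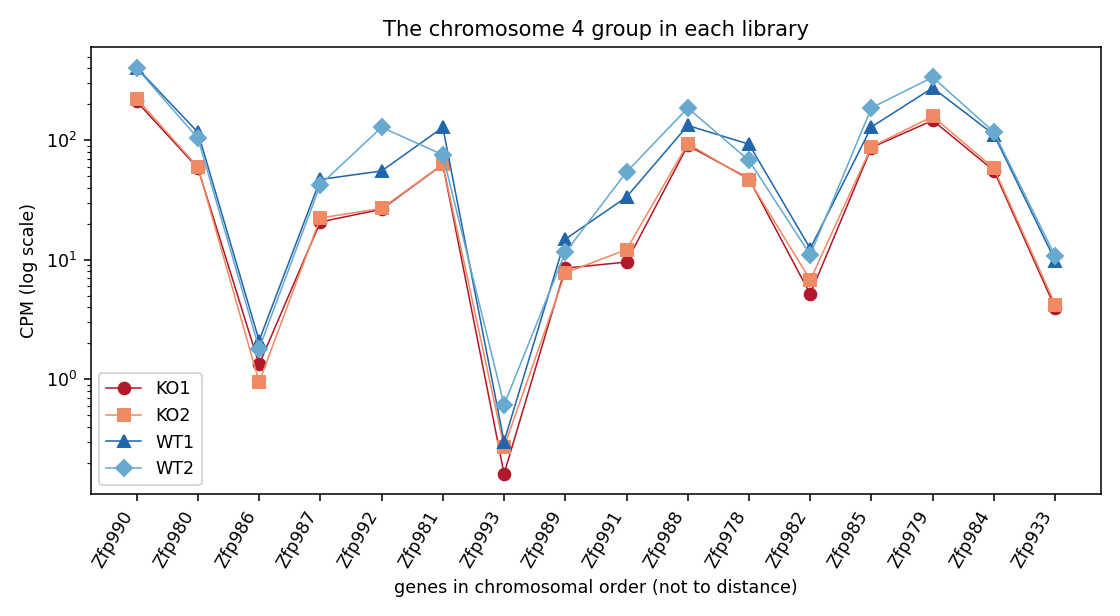
Normalised read count in CPM (log scale, vertical axis) of the 16 genes of the chromosome 4 group in chromosomal order (horizontal axis), 1 line per library, where lines only join the points. The KO1 and KO2 points lie below WT1 and WT2 in each gene; the wild types separate at Zfp992, Zfp993, Zfp981 and Zfp991, and the knockouts at the low-count genes Zfp993 and Zfp986.

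The 10 genes of the chromosome 2 group (175372436 to 178078476) are close copies, with a median of 87.3% shared stretches, and 6 of them had too few counts to be tested. The 4 tested genes had a median log2 fold change of -1.82, and -1.23 with trends removed. Without Zfp972, which had few knockout counts, the medians were -1.56 and -1.0. Zfp971 (ENSMUSG00000074519, 178023284 to 178034022, 12 finger motifs) had 2.4 and 3.0 CPM in knockouts against 13.4 and 9.53 CPM in wild types. The means were 2.70 ± 0.424 and 11.5 ± 2.74 CPM (SD, n = 2 each). The groups did not overlap, and the log2 fold change was -2.08 ± 0.28 (edgeR adjusted p = 0.0482), and -1.46 ± 0.36 with trends removed. Zfp970 (ENSMUSG00000078866, 177464733 to 177478129, 14 finger motifs) had 5.19 and 5.14 CPM against 15.7 and 14.6 CPM. Its libraries agreed within each group and its log2 fold change was -1.56 ± 0.17 (edgeR adjusted p = 0.0482), and -1.0 ± 0.22 with trends removed.

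Neither of the other tested genes of this group passed. Zfp972, whose annotated coding sequence of 139 codons holds no finger motif, had 0.162 and 0.361 CPM (5 and 16 counts) against 1.13 and 1.53 CPM (45 and 55 counts). Its log2 fold change of -2.29 ± 0.50 had an edgeR adjusted p of 0.0633. Zfp931 had 4.08 and 4.73 against 9.52 and 10.1 CPM (edgeR adjusted p = 0.0527). Among the untested genes, Zfp966 had 13 and 5 counts in WT1 and WT2 and 0 in both knockouts, where 0 counts allow up to 3. Zfp973 had 1 and 5 counts against 9 and 8.

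The remaining groups had medians near that of chromosome 4. On chromosome 7 (42579783 to 43192109) 1 of 4 genes fell, and the median was -1.03 (-0.34 with trends removed). That gene, Zfp976, with 18 finger motifs, had 16.9 and 17.7 CPM against 36.6 and 46.8 CPM. Its neighbour Zfp936, the smallest difference of the 4, had 19.5 and 21.3 against 34.7 and 37.3 CPM (edgeR adjusted p = 0.0523). On chromosome 8 (69209038 to 69749970) Zfp930 fell, from 30.1 and 29.8 CPM in WT1 and WT2 to 12.8 and 14.6 CPM. Its neighbour Zfp963 had 1.72 and 1.80 against 2.23 and 2.36 CPM (edgeR adjusted p = 0.327).

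On chromosome 17 (21567008 to 22867134) 10 genes were tested and 0 fell or rose past the edgeR threshold, while 9 of them had an unadjusted p under 0.05, and DESeq2 called 5. Their median was -0.88 (-0.17 with trends removed). Zfp994 had the largest difference, at 3.31 and 2.79 against 8.02 and 5.94 CPM (edgeR adjusted p = 0.0646). Zfp946 had the smallest, at 8.17 and 8.54 against 13 and 14 CPM, and turned to 0.07 ± 0.16 with trends removed. The most abundant, Zfp945, had 28.4 and 31.6 against 49.2 and 58.9 CPM (log2 fold change -0.85 ± 0.16, and 0.0007 with trends removed).

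Other genes inside the spans of the 5 groups were mostly lower in the knockouts too. Of 69 tested genes that are not named Zfp900 to Zfp999, 63 were below 0, 14 fell and 0 rose. Their median log2 fold change was -1.01, and -0.52 with trends removed. For the 37 tested Zfp900 to Zfp999 genes of the groups these medians were -0.94 and -0.27, which is nearer to 0 in the second fit. The 2 sets are unlike in level, with a median mean level of 3.92 CPM for the 69 genes and 14.7 CPM for the 37. Zfp972 and Zfp993, tested through their wild-type level, are among the 37. Genes tested in that way were not set apart among the 69. Zfp1 to Zfp899, the wider set of numbered zinc finger genes, had 285 tested genes with a median GC content of 46.5%. Of these, 13 fell and 6 rose, 63.2% had both knockouts below both wild types, and their median was -0.47 (-0.17 with trends removed).

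Outside the groups, 19 of 20 genes were tested, 3 fell and 0 rose, with a median of -0.84. Zfp958 (ENSMUSG00000058748, chromosome 8, 4613167 to 4630231), which shares 0.648% of its stretches, had the closest replicates. It stood at 16.5 CPM in both knockouts and at 37.5 and 37.2 CPM in wild types, a fitted difference of -1.18 ± 0.13 log2 units (edgeR adjusted p = 0.0482) and -0.47 ± 0.17 with trends removed. Zfp935 (chromosome 13) had 3.05 and 2.91 against 7.59 and 7.91 CPM, but 99.2% of its stretches occur in the overlapping annotation Gm49359, so its counts are uncertain. Zfp960 (chromosome 17, outside the group) had 15.7 and 16.0 against 28.5 and 29.3 CPM and shares 81.4% of its stretches with Zfp97.

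**Figure D4:**
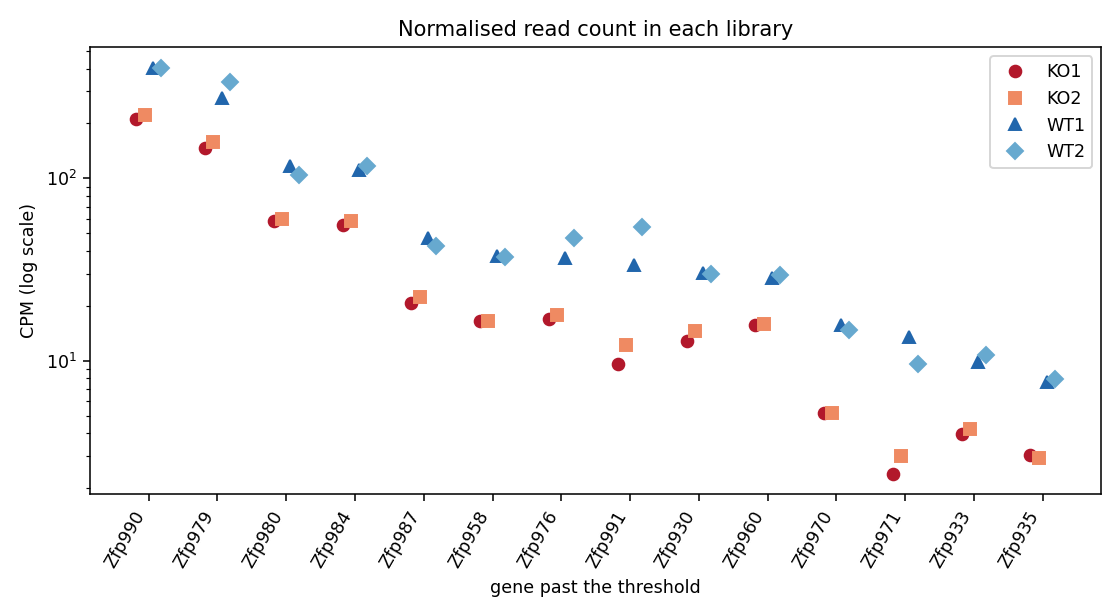
Normalised read count in CPM (log scale, vertical axis) in each library for the 14 genes past the threshold (horizontal axis), ordered by WT1 level. In each gene both KO points lie below both WT points, as in Zfp990 with 211 and 223 CPM against 404 and 400 CPM.

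Some genes were singled out after their values were seen. Zfp956 (chromosome 6) has the highest GC content of the 63, 54.3%, and its difference grew when trends were removed. It had 5.87 and 5.95 CPM in knockouts against 9.32 and 9.25 CPM in wild types, a fitted difference of -0.65 ± 0.18 log2 units (edgeR adjusted p = 0.0866) and -1.07 ± 0.17 with trends removed. Zfp951 (chromosome 5) had 6.71 and 6.33 CPM in the knockouts, but 15.1 (WT1) and 38.5 CPM (WT2) in wild types (edgeR adjusted p = 0.0727). Zfp954 was nearest to no difference, at 10.5 and 11.3 against 11.6 and 14.2 CPM (log2 fold change -0.24 ± 0.19, edgeR adjusted p = 0.395).

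The spread came mostly from the wild types. The log2 ratio of WT2 over WT1 ran from -0.76 (Zfp981) to 1.55 (Zfp983) over the tested genes, and exceeded 0.5 in size in 16 of 56. That of KO1 over KO2 exceeded 0.5 in size in 2 of 56 (Zfp972 and Zfp993), both with few counts. The wild types differ in passage, and these pairs of single libraries carry no test.

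Cofactors of KRAB zinc finger proteins had a median nearer to 0, a difference that was not tested. Of 30 listed genes, all tested, 2 fell, 0 rose and the median log2 fold change was -0.36 (-0.14 with trends removed). Trim28 had 1906 and 1837 CPM in knockouts against 1928 and 1432 CPM in wild types, so that the groups overlapped (log2 fold change 0.16 ± 0.19, edgeR adjusted p = 0.570). With trends removed it was at -0.38. Setdb1 had 189 and 190 against 245 and 229 CPM (-0.32 ± 0.12, edgeR adjusted p = 0.129). The genes that fell were Smarcad1, a remodeller that binds TRIM28, at 188 and 186 against 363 and 314 CPM, and Atrx, a chaperone partner of DAXX for histone H3.3, at 280 and 296 against 597 and 511 CPM. With trends removed they were at -0.17 and -0.24.

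Library totals ran from 29264632 counts (KO1) to 42322129 counts (KO2), so 1 count was worth 0.0236 to 0.0342 CPM before scaling. Drosha, which checks the labels, had 158 CPM in both knockouts and 364 and 357 CPM in wild types. All 8 markers of embryonic stem cells were detected in each library, and their summed level was 6544 and 6608 CPM in knockouts against 5569 and 6358 CPM in wild types; 1 of the 8 (Utf1) rose and 0 fell. The 8 markers of primitive endoderm summed to 17.1 and 15.3 CPM in knockouts against 62.8 (WT1) and 177 CPM (WT2), with none at 0. Of them 1 (Cubn) fell and 0 rose. Markers of fibroblasts or feeders summed to 49.7, 46.0, 38.6 and 26.6 CPM in KO1, KO2, WT1 and WT2, with Dcn, Lum and Postn at 0 in both wild types. Most of each sum was Thy1, at 40.8, 41.5, 31.5 and 25.9 CPM in the same order. Dcn had 1.65 and 0.541 CPM in KO1 and KO2. Col3a1 had 1.52 and 0.316 CPM there, against 0.025 and 0 CPM in WT1 and WT2. Acta2 was highest in WT1, at 5.56 CPM. None of the list was called. Neural markers summed to 112 and 113 against 59.0 and 68.1 CPM, and 2 of them (Pax6 and Tubb3) rose. Trophoblast markers summed to 37.6 and 36.5 against 33.2 and 19.8 CPM. With GC and length trends removed, the log2 fold change of Utf1 went from 2.11 to 0.47 and that of Tubb3 from 1.13 to 0.09. Pax6 went from 2.47 to 2.70 and Cubn from -4.10 to -3.62. The median of the tested neural markers went from 0.88 to 0.09. The part of such cells in the zinc finger values was not tested.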

How the data were processed

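The deposited files hold raw read counts per Ensembl gene for each library, with no normalisation. Alignment with STAR 2.4.2a and counting with featureCounts 1.4.5-p1 on mm10 is what the submitters' processing notes name. Which annotation release and counting options were used is not given in the sources used here. Groups came from the titles. Symbols, coordinates, biotypes, exon lengths and transcript sequences came from GENCODE M21 on the same build, which named 42462 of the identifiers.

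The main test was that of edgeR 4.0.16, run under R 4.3.3 (TMM scaling, default expression filter with minimum count 10 and minimum total 15, quasi-likelihood fit of group alone, Benjamini-Hochberg adjustment over all genes, threshold 0.05). Log2 fold changes (± SE) compare knockout to wild type. Ratios of single libraries used a prior count of 2. GC and length trends were lowess curves (span 0.3) of each library's deviation from the mean of the libraries, removed as offsets. DESeq2 1.42.0, other scalings, no filter, a replicate block and leaving out each library were tried. The scripts for the fits were tested on simulated data. Sequence work used Python 3.11.15 and Biopython 1.88. A finger motif was 2 cysteines and 2 histidines at C2H2 spacing in the translated coding sequence, and a KRAB-like stretch a match to the core of the KRAB A box.

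Genes named are Drosha, every called gene, the 5 highest per kb, the extremes and most abundant gene of each genomic group, Trim28, Setdb1 and called cofactors. Any other gene named was chosen after its values were seen. The genes and lists were chosen with earlier results of these data known. The upper limit given for 0 counts covers counting error only.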

Additional observations from a re-analysis of the deposited data

How the results depend on the processing

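With 2 libraries a group and all calls close to the threshold, the number of genes called lower depended on the setting, while 0 rose in every setting. Against 14 as reported, 0 fell with library totals alone, upper-quartile scaling, the GC trend, the length trend or both trends removed, or both trends with a replicate block. Unadjusted p-values under 0.05 numbered 35, 42, 12, 49, 12 and 8 in these settings, in that order. There were 15 with DESeq2-type size factors, 27 with no filter and 35 with DESeq2, 3 among genes with under 10% shared stretches, and 0 to 55 when 1 library was left out (0 without KO1 or KO2, as for all genes, with 10 and 15 unadjusted p-values under 0.05, 55 without WT1 and 50 without WT2, when the lone wild type is assumed to vary like the knockout pair). Over all genes, 38.8% and 34.6% were called lower without WT1 and WT2, and 11.1% with DESeq2.

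Leaving out Zfp972 and Zfp993, chosen after seeing the data, gave a median of -0.89. The median of these genes stayed below 0 in each setting, over 56 genes or, with no filter on low counts, over 62. It was -0.27 with both trends removed, -0.23 with the GC trend alone removed (chosen after seeing the data, like the length trend alone) and -0.24 with both trends and a replicate block, and lay between -1.08 and -0.75 in the other settings. For the groups, removing both trends, the GC trend alone, or both with the replicate block gave -1.23, -1.19 and -1.19 on chromosome 2, -0.21, -0.20 and -0.21 on chromosome 4, -0.34, -0.34 and -0.31 on chromosome 7, -0.36, -0.40 and -0.36 on chromosome 8, and -0.17, -0.18 and -0.12 on chromosome 17. Chromosome 2 was at -2.29 with no filter, which adds nearly empty genes, and at -2.11 with the length trend removed. Chromosome 8, with 3 tested genes, was at -0.75 with library totals and from -1.10 to -0.57 when a library was left out. Joining genes within 0.5 or 2 Mb left the same tested genes in each group, so no group's median could move.

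Signs turned for 6 named genes with both trends removed, for 5 with the GC trend alone removed and for 6 with both trends and the replicate block, and the cause was not tested. Trim28 was at -0.38, -0.38 and -0.38 (and from -0.043 without WT2 to 0.39 without WT1), Zfp946 at 0.072, 0.078 and 0.076, Zfp963 at 0.040, 0.065 and 0.044, Zfp981 at 0.059, 0.078 and 0.16, and Zfp988 at 0.053, 0.062 and 0.055. Zfp945 was at 0.00072 and 0.0018 with both trends removed, without and with the block.

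The libraries share only replicate numbers in their titles. Same-numbered deviations from the group means correlated at 0.046 over tested genes, and the fit with a replicate block called 16 of the 56 genes lower, with a median of -0.87. The 7 untested genes had at most 13 counts in a library. All of them but Zfp957 share 84.7% or more of their stretches with other genes. Why their counts were low was not tested.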

Other observations

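The pseudogene Zfp939 had 39 and 62 counts in KO1 and KO2 and 70 and 94 counts in WT1 and WT2. Outside Zfp900 to Zfp999, 40 further genes carry CTGCCAGTCAGA (or its reverse) in a promoter window. Of the 15 tested among them, on 7 chromosomes, 5 fell and 0 rose, with a median log2 fold change of -1.15 (-0.56 with GC and length trends removed). AGTCTTGAGTGA was in 36 further genes, of which 16 were tested, on 5 chromosomes, and 6 fell (median -1.42, and -0.77 with trends removed). ACTCTAACCCTA was in 32, of which 15 were tested, on 3 chromosomes, and 6 fell (median -1.40, and -0.72 with trends removed). Over all genes tested, 1.94% were called lower. A gene can hold more than 1 of the words, so the counts are no separate results.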
